A study of Mus musculus with 26 samples.

Results

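Aminoacyl-tRNA synthetases are the enzymes that join each amino acid to its tRNA, the step that supplies translation. The 36 synthetase genes described here were chosen by symbol among the 55254 symbols of a TPM table of mouse inner cell masses (ICMs). No measured value entered that rule, but earlier results of these data were known when the genes were chosen. They are 20 cytosolic genes and 16 mitochondrial genes, the latter bearing the suffix 2. Gars and Kars each encode both the cytosolic and the mitochondrial enzyme and were counted as cytosolic. Of the 36, 35 were found under their own symbol and Mars under its synonym Mars1. All 36 passed the filter for testing, which asked for 5 or more libraries at a TPM of 1 or more. TPM is a share of the library, corrected for transcript length.

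The data came from 26 libraries, 1 per ICM, made by FLASH-seq, a full-length RNA-seq method for very small inputs. CD-1 embryos collected as morulae (E2.75) spent 24 hours in culture with the agents, and the ICM was isolated by immunosurgery, in which the outer cells are lysed. The DMSO group (5 ICMs) received vehicle, and the LY group (7 ICMs) received 10 µM of the PI3K inhibitor LY294002. The FGF4 group (8 ICMs) received 1 µg/ml of FGF4/heparin, a growth factor with its cofactor, and the LY+FGF4 group (6 ICMs) received both. No genotype or allele is given for any group, and embryos of several litters were mixed before they were shared out, so the litter of an ICM is unknown and each library is a separate embryo. Genes that reached 1 TPM in a library are called its listed genes, and their number had a median of 10692 (DMSO), 10089 (LY), 10504.5 (FGF4) and 8650.5 (LY+FGF4). Below 9000 lay 6 libraries, FGF4 replicates 2 and 3 and LY+FGF4 replicates 2, 3, 5 and 8. Read numbers are not part of a TPM table, so the depth is unknown. No 2 libraries were identical.

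Markers of the ICM lineages were present. Epiblast markers (Nanog, Fgf4, Klf2, Prdm14, Sox2 and Utf1) summed to a median TPM of 806.2 for DMSO, 686.7 for LY, 212.3 for FGF4 and 263.1 for the pair of agents. Primitive endoderm markers (Sox17, Gata4, Gata6, Pdgfra, Foxa2 and Sox7) summed to 428.4, 185.0, 1446 and 1123 in the same order. Sox7 was at 0 in every DMSO, LY and LY+FGF4 library, and Foxa2 in every LY library. The labels say that outer cells were lysed. The 10 trophectoderm markers summed to medians of 904.5, 968.0, 466.2 and 690.1, with Elf5 at 0 in every FGF4 and LY+FGF4 library. Krt8 and Cldn4 had the highest DMSO means of these markers, 344.6 and 262.6 TPM, while Gata3 and Krt7 had 3.89 and 2.86. The markers did not move together. From DMSO to LY the mean of Cldn4 went up to 421.3 TPM, while that of Cdx2 went from 83.5 to 6.88 TPM. In such whole-ICM libraries, fewer cells of a type and less RNA per cell cannot be told apart.

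Synthetases fall into class I and class II by the fold of their catalytic domain, and several cytosolic ones sit in a multisynthetase complex held by scaffold proteins. When an amino acid is short, uncharged tRNA activates the kinase GCN2, which phosphorylates eIF2. General translation then slows while that of the transcription factor ATF4 rises, and ATF4 induces amino acid synthesis, transport and many cytosolic synthetase genes. PI3K signalling, through mTORC1, is known to raise ATF4 as well. From textbook knowledge 12 of the 20 cytosolic genes were listed as ATF4-induced: Aars, Cars, Eprs, Gars, Iars, Lars, Mars, Nars, Sars, Tars, Wars and Yars. The mitochondrial enzymes charge the tRNAs that translate the few proteins encoded by mitochondrial DNA.

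ATF4 binds a composite element whose first 8 bases read TGATGNAA, and the 4 sequences below are shown because they hold it in genes whose RNA differed between treatments. They lie in RefSeq promoter windows (GRCm38.p6, 250 bases before to 50 after the annotated start), are written 5′ to 3′ on the gene's strand, and carry the element in capitals. In Yars the element is on the gene's own strand. In the other 3 it is on the opposite strand, so that it appears as its reverse complement.

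Tars, minus strand, chr15:11399655-11399684: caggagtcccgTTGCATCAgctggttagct
Yars, plus strand, chr4:129189895-129189924: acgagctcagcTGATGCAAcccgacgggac
Gars, plus strand, chr6:55037960-55037989: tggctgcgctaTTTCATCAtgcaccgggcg
Iars, plus strand, chr13:49682126-49682155: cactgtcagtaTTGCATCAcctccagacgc

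Counted from the RefSeq start, with 0 for the first transcribed base, the element begins at -15 in Tars, 3 in Yars, -30 in Gars and 7 in Iars. By GENCODE M21 transcripts, the Gars stretch lies upstream of the gene. The Iars stretch lies inside an annotated 5′ UTR (transcript Iars-206), and 13 of the 30 bases of Yars and 11 of those of Tars do too. RefSeq windows were held for 27 of the 36 genes. TGATGNAA, searched on both strands, was in 5 of 8 windows of ATF4-listed genes, in 0 of 5 of the other cytosolic genes and in 0 of 14 mitochondrial ones. It was in 3.97% of all 32851 windows of that length. With the sixth letter fixed, TGATGCAA was in 4 of the 8, though not in that of Gars, and in 0.895% of all windows. GCGCATGC, the core of the site of NRF1, a factor known for genes of mitochondrial proteins, was in 3 of the 14 mitochondrial windows (Rars2, Vars2 and Wars2) and in 2.71% of all. The E-box CACGTG was among others in those of Iars, Tars, Farsb and Ears2 and in 7.15% of all; it overlapped no ATF4 element in these genes. These are matches of letters, not shown binding sites.

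In the level of RNA, the cytosolic genes stood above most mitochondrial ones. Averaged over the 26 libraries, Nars had the highest cytosolic level (721.4 TPM), followed by Dars (687.3 TPM) and Sars (643.3 TPM). That order came from the FGF4 group, where Nars had a mean of 1278 TPM and Dars 701.1 TPM. In DMSO, LY and LY+FGF4 the mean of Dars was the highest, at 798.7, 663.9 and 603.4 TPM, and that of Nars was 537.2, 375.1 and 537.0 TPM. Nars and Dars, which charge asparagine and aspartate tRNAs, ranged from 216 to 1928 and from 207 to 1191 TPM over the libraries, so their order is within that spread. Iars and Cars, for isoleucine and cysteine, were lowest among the cytosolic genes at 93.9 and 65.3 TPM. Dars was at 729, 774, 826, 817 and 847 TPM in the 5 DMSO libraries. In LY, Dars ran from 549 to 844 with a median of 637, in FGF4 from 582 to 847 with a median of 695, and in LY+FGF4 from 207 to 1191 with a median of 596. It did not pass the threshold in a comparison.

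Of the mitochondrial genes, Rars2 and Tars2, for arginine and threonine, stood apart with means of 538.7 and 236.4 TPM, and the next, Pars2, had 67.7 TPM. At the other end were Mars2 and Wars2, for methionine and tryptophan, at 3.65 and 3.48 TPM. Mars2 was at 3.78, 2.08, 4.96, 1.73 and 3.09 TPM in DMSO, and its medians were 5.75 (LY), 1.65 (FGF4) and 3.10 (LY+FGF4), with highest values of 7.65, 8.60 and 7.97. Wars2 was at 3.12, 2.56, 1.60, 0.57 and 0 TPM in DMSO, and it was listed at 0 in 8 of the 26 libraries, with a highest value of 16.3 in LY. Values of 0 were 17.7% of the mitochondrial values in LY+FGF4, 5.47% in FGF4, 1.25% in DMSO and 0.893% in LY. Among the cytosolic values there was a single 0, for Cars in LY+FGF4 replicate 2.

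The effect of the PI3K inhibitor was examined first, in each FGF4 background and pooled. RNA of 10 cytosolic synthetases, for alanine, cysteine, glycine, isoleucine, methionine, asparagine, serine, threonine, tryptophan and tyrosine, was lower with LY, and so was that of 1 mitochondrial enzyme. In the pooled LY effect, the mean of the differences of LY from DMSO and of LY+FGF4 from FGF4, 11 of the 36 genes fell and 0 rose. They were Aars, Cars, Gars, Iars, Mars, Nars, Sars, Tars, Wars and Yars, all ATF4-listed, and Ears2 from the mitochondria. Differences are log2 fold changes on the log2(TPM + 1) scale, which understates changes of low genes, and genes were called at an adjusted p under 0.05 in a limma fit of all 12034 tested genes. By that rule 4.64% of all tested genes were called in the pooled effect in either direction and 3.6% were lower.

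By group, 10 of the 12 ATF4-listed genes fell, with a median log2 fold change of -1.07, and Eprs (-0.28, adjusted p = 0.333) and Lars (-0.29, adjusted p = 0.573) did not pass. Among the 8 other cytosolic genes 0 passed, and the median was -0.455. At an unadjusted p under 0.05, 3 of them were lower, a cut at which the share of all genes was not counted. Of the 8, Vars, for valine, had -1.21 (adjusted p = 0.105) with a wide 95% interval of -2.08 to -0.33, and Qars, for glutamine, had 0.26 (adjusted p = 0.381). The mitochondrial genes had a median of -0.285, 5 of 16 were positive and 1 of 16 passed. The median over all tested genes was -0.18. With the number of listed genes as a covariate the medians were -0.973 (ATF4-listed), -0.201 (other cytosolic) and 0.0333 (mitochondrial). Many mitochondrial genes had wider errors, so the counts of calls do not compare the sets at equal precision. Pars2 had -1.09 (SE 0.64) and Sars2 -1.03 (SE 0.46) without passing, whereas Mars passed at -0.67 (SE 0.17). The list of ATF4-induced genes was made with earlier results of these libraries known, so the split is a description. Within the cytosolic set, 8 of the 12 genes outside the multisynthetase complex fell, and 2 of the 8 in it did, Iars and Mars.

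**Figure D1:**
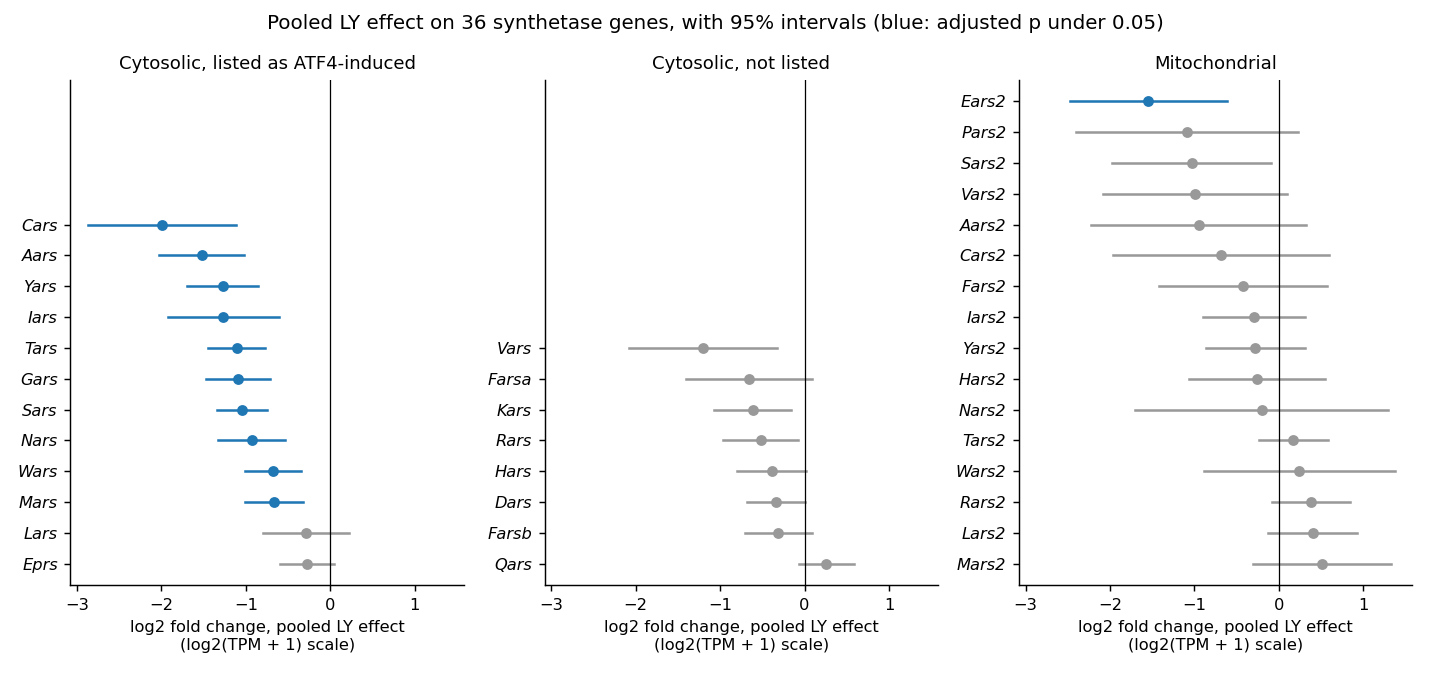
Log2 fold changes of the pooled LY effect on the log2(TPM + 1) scale (x axis) for the 36 synthetase genes (y axis), with 95% intervals of the limma fit over 26 libraries; blue marks an adjusted p under 0.05. In the left panel 10 of 12 ATF4-listed genes are blue, in the middle panel 0 of 8, and in the right panel only Ears2 of 16 mitochondrial genes.

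Tars, Yars and Cars are the genes in which every LY library was below every DMSO library. Tars charges threonine tRNA, and its DMSO libraries were at 154, 115, 119, 179 and 166 TPM, while LY ran from 48.3 to 80.1 with a median of 63.7. In FGF4 Tars ran from 127 to 305 with a median of 181, and in LY+FGF4 from 63.0 to 123 with a median of 84.4. The LY libraries thus lay below the vehicle libraries and the LY+FGF4 libraries below the FGF4 libraries, with no overlap. Its differences were -1.16 (SE 0.24, adjusted p = 0.0243) for LY against DMSO, -1.05 (SE 0.23, adjusted p = 0.00805) for LY+FGF4 against FGF4 and -1.11 (SE 0.17, adjusted p = 0.000175) pooled.

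Yars, for tyrosine, was at 406, 403, 417, 321 and 391 TPM in DMSO and ran from 88.0 to 275 with a median of 203 in LY. In FGF4 it ran from 442 to 795 with a median of 628, and in LY+FGF4 from 88.6 to 503 with a median of 237. LY and DMSO did not overlap, whereas the highest LY+FGF4 library reached above the lowest FGF4 library. LY+FGF4 differed from FGF4 by -1.46 (SE 0.28, adjusted p = 0.00319) and the pooled difference was -1.27 (SE 0.21, adjusted p = 0.000365); LY alone gave -1.09 (SE 0.30, adjusted p = 0.108). Yars overlaps C77080 on the other strand, and no source used here states whether counting used strand, so reads of the overlap cannot be told apart.

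Cars, for cysteine, was at 73.0, 71.6, 64.4, 121 and 78.6 TPM in DMSO and ran from 13.01 to 45.8 with a median of 24.9 in LY. In FGF4 the range was from 80.9 to 154 with a median of 102, and in LY+FGF4 from 0 to 76.2 with a median of 26.2. Both LY groups lay wholly below their controls, although DMSO replicate 8 stood high in its group. The pooled difference, -1.99 (SE 0.43, adjusted p = 0.0064), was the largest of the 36 genes, and those in the separate backgrounds were -1.58 (SE 0.63, adjusted p = 0.401) and -2.40 (SE 0.58, adjusted p = 0.0187).

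Sars charges serine tRNA and had the smallest p of the family in the pooled LY effect and in LY+FGF4 against FGF4. It was at 927, 631, 597, 737 and 937 TPM in DMSO, from 315 to 696 with a median of 559 in LY, from 713 to 1279.7 with a median of 869.9 in FGF4, and from 151 to 360.3 with a median of 348 in LY+FGF4. All LY+FGF4 libraries were below all FGF4 libraries, and 5 of those 6 sat between 323 and 360.3 TPM. The LY and DMSO ranges overlapped. Sars differed by -1.56 (SE 0.20, adjusted p = 3.72e-05) with FGF4 and by -0.54 (SE 0.22, adjusted p = 0.406) without it, and pooled by -1.05 (SE 0.15, adjusted p = 6.36e-05). The difference between these LY effects, the interaction, was -1.03 (adjusted p = 0.388), with the smallest p of the family for that term.

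Aars, for alanine, was at 237, 80.8, 141, 169.8 and 278 TPM in DMSO and ran from 40.1 to 83.9 with a median of 64.5 in LY. In FGF4 it ran from 202 to 395 with a median of 261, and in LY+FGF4 from 39.2 to 289.8 with a median of 79.5. The highest LY+FGF4 value came from replicate 2, a library with fewer than 9000 listed genes, and the other 5 were below every FGF4 library. The differences were -1.41 (SE 0.36, adjusted p = 0.0831) for LY against DMSO, -1.64 (SE 0.33, adjusted p = 0.00555) with FGF4 and -1.52 (SE 0.25, adjusted p = 0.00038) pooled. Aars overlaps Exosc6 on the same strand, so their reads may have been shared out between both.

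Gars makes glycyl-tRNA in both compartments. It was at 174, 89.6, 121, 219.6 and 166 TPM in DMSO and ran from 61.8 to 133 with a median of 65.9 in LY, from 97.8 to 249.96 with a median of 146 in FGF4 and from 46.7 to 80.7 with a median of 61.8 in LY+FGF4. FGF4 and LY+FGF4 did not overlap, and LY overlapped DMSO. Gars differed by -1.26 (SE 0.25, adjusted p = 0.00441) with FGF4 and -1.09 (SE 0.18, adjusted p = 0.000587) pooled.

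Nars, for asparagine, was at 579, 360.4, 419.8, 557 and 771 TPM in DMSO and ran from 216 to 605 with a median of 338 in LY. With FGF4 it ran from 866 to 1928 with a median of 1123, and with both agents from 227 to 741 with a median of 566. The FGF4 libraries stood above all others, and the LY+FGF4 libraries were in the range of DMSO and LY. LY+FGF4 against FGF4 gave -1.31 (SE 0.26, adjusted p = 0.00475), and the pooled effect was -0.93 (SE 0.19, adjusted p = 0.00464).

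Wars, for tryptophan, was at 127, 108, 102, 150.4 and 169.6 TPM in DMSO and ran from 60.8 to 121 with a median of 93.1 in LY. It ran from 193 to 386 with a median of 221 in FGF4 and from 82.5 to 188 with a median of 133 in LY+FGF4. The FGF4 libraries lay above the rest here too. The LY effect was -0.88 (SE 0.22, adjusted p = 0.0227) with FGF4 and -0.68 (SE 0.16, adjusted p = 0.0137) pooled. Wars overlaps Wdr25 on the other strand, and the Wars values could hold reads of that gene. Wdr25 had means of 71.2 TPM in DMSO, 39.5 in LY and 101 in FGF4, and was at 0 in 5 of 6 LY+FGF4 libraries; its part in the Wars result was not tested.

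Iars, for isoleucine, was at 70.5, 61.7, 98.0, 138 and 82.2 TPM in DMSO and ran from 20.3 to 84.1 with a median of 46.9 in LY, from 83.9 to 248 with a median of 152 in FGF4 and from 10.6 to 171 with a median of 57.1 in LY+FGF4. LY+FGF4 spread widely and overlapped FGF4. The differences were -1.68 (SE 0.43, adjusted p = 0.0284) with FGF4 and -1.27 (SE 0.32, adjusted p = 0.019) pooled.

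Mars, for methionine including that of initiator tRNA, was at 211, 171, 213, 228 and 277 TPM in DMSO and ran from 82.6 to 217 with a median of 126 in LY. Its range was from 129 to 345 with a median of 245 in FGF4 and from 114 to 196 with a median of 145 in LY+FGF4. The ranges overlapped in both backgrounds, and the gene passed only in the pooled effect, at -0.67 (SE 0.17, adjusted p = 0.0188). Mars overlaps Ddit3, the gene of the stress factor CHOP, on the other strand. Ddit3 had means of 11.8 TPM for DMSO and 3.63 TPM for LY, and 5 of 6 LY+FGF4 libraries and 4 of 8 FGF4 libraries were at 0; its part in the Mars result was not tested.

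**Figure D2:**
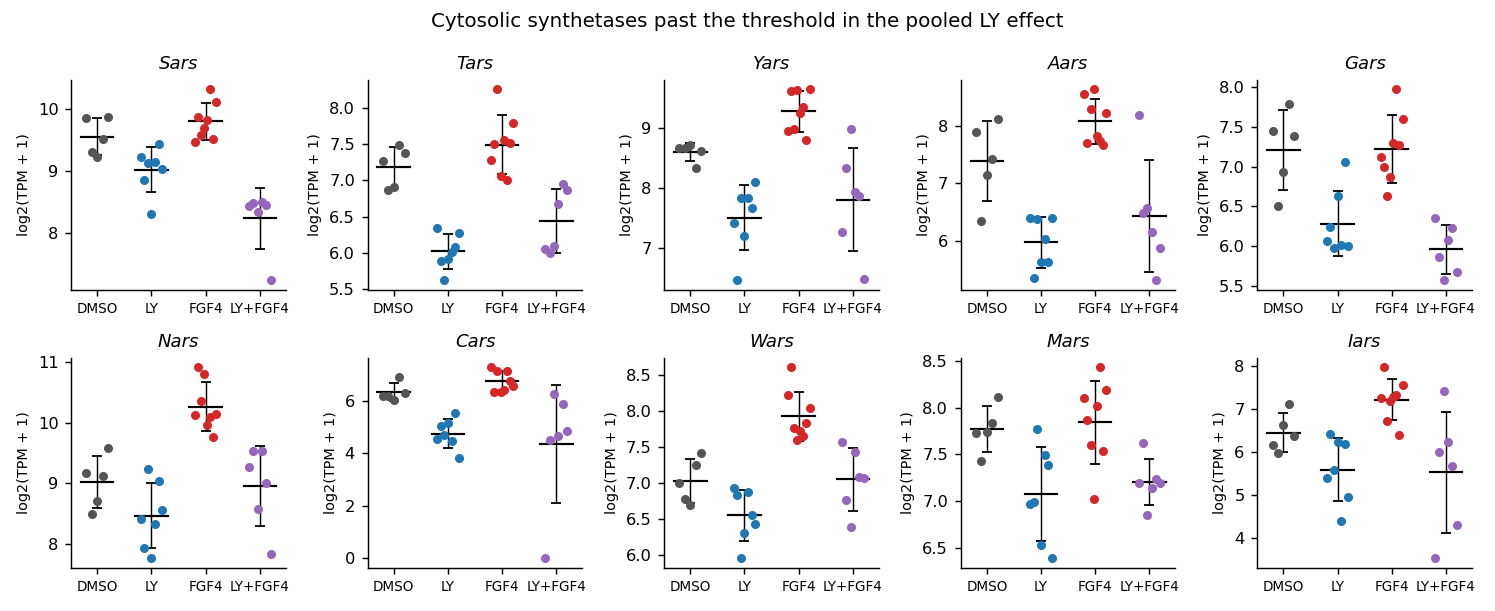
Log2(TPM + 1) per library (points) in the 4 treatment groups (x axis), with the group mean and SD, for the 10 cytosolic genes lower in the pooled LY effect. LY libraries sit below DMSO libraries without overlap for Tars, Yars and Cars, and LY+FGF4 libraries below FGF4 libraries without overlap for Sars, Tars, Gars, Nars, Cars and Wars.

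Kars and Ears2 complete the genes lower with LY in a comparison. Kars, which serves both compartments and is not ATF4-listed, was at 131, 86.0, 152, 95.1 and 102 TPM in DMSO and ran from 62.8 to 226 with a median of 101 in LY, from 123 to 688 with a median of 236 in FGF4 and from 71.7 to 142 with a median of 112 in LY+FGF4. LY+FGF4 against FGF4 was -1.22 (SE 0.30, adjusted p = 0.0213), and LY against DMSO was -0.01 (SE 0.33, adjusted p = 1). The interaction was -1.21 (adjusted p = 0.627). Ears2 was at 62.2, 51.7, 48.4, 41.2 and 55.1 TPM in DMSO and ran from 17.3 to 67.3 with a median of 20.3 in LY, from 17.1 to 46.1 with a median of 30.6 in FGF4 and from 0 to 28.5 with a median of 14.04 in LY+FGF4, where 2 of 6 libraries were at 0. It differed by -2.22 (SE 0.61, adjusted p = 0.0391) with FGF4 and -1.55 (SE 0.45, adjusted p = 0.0452) pooled. Both calls were lost often: the first in 6 of 13 settings and in 8 of 14 runs that left out a library (FGF4 replicates 3 to 8 and LY+FGF4 replicates 2 and 6), and the pooled one in 6 of 12 settings and 18 of 26 such runs, with the log2 fold change between -2.64 and -1.66 and between -1.75 and -1.27 over those runs. Ears2 overlaps Ubfd1 on the other strand.

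The calls were also counted in each background. For LY against DMSO only Tars fell, 1 of 36, where 0.374% of all genes were called and 0.299% were lower. Another 6 ATF4-listed genes were lower at an unadjusted p under 0.05. That cut is looser than the one behind these shares, and the share of all genes at it was not counted. For LY+FGF4 against FGF4, 11 of 36 fell and 0 rose, where 3.55% of all genes were called and 2.83% were lower. These were 9 of the 12 ATF4-listed genes, Kars and Ears2. The groups did not overlap, with every LY library lower, for 3 genes against DMSO (Cars, Tars and Yars; 1.54% of all genes) and for 6 against FGF4 (Cars, Gars, Nars, Sars, Tars and Wars; 0.49% of all genes).

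Whether LY acted differently with and without FGF4 was tested by the interaction, the LY effect with FGF4 minus that without it. Here 0 of the 36 genes passed, and 0.0499% of all genes were called. At the looser cut of an unadjusted p under 0.05 there were 2, Sars and Kars. The share of all genes at that cut was not counted, so the 2 are not read as an excess. The median LY effect of the 36 genes was -0.335 against DMSO and -0.91 against FGF4, beside -0.102 and -0.24 over all genes. The second was -0.572 without LY+FGF4 replicate 2 alone. With the number of listed genes as a covariate both were smaller, at -0.182 and -0.559. The median interaction of the 36 genes was -0.322, and -0.0346 without the 6 libraries under 9000 listed genes. Both effects were negative for 12 of 12 ATF4-listed genes, 7 of the 8 other cytosolic genes and 10 of the 16 mitochondrial genes, and for 41.3% of all genes.

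**Figure D3:**
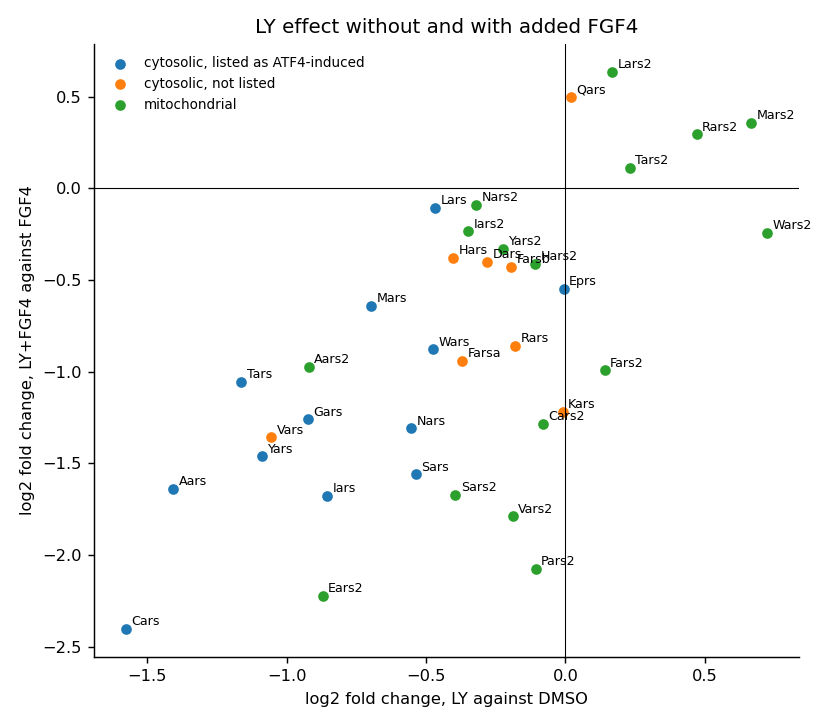
Log2 fold change of LY against DMSO (x axis) and of LY+FGF4 against FGF4 (y axis) for each of the 36 genes, coloured by group; the comparisons share no libraries. All 12 ATF4-listed genes lie below and left of 0, while Lars2, Qars, Rars2, Mars2 and Tars2 lie above 0 on both axes.

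Summed over genes, the ATF4-listed cytosolic synthetases held 3234 ± 647.0 TPM in DMSO (SD, n = 5), 2030 ± 403.0 in LY (n = 7), 4968 ± 660.8 in FGF4 (n = 8) and 2418 ± 574.0 in LY+FGF4 (n = 6). All LY+FGF4 libraries (highest 2907) lay below all FGF4 libraries (lowest 3891). The other cytosolic genes had means of 1961, 1646, 2106 and 1704 TPM in the same order. The mitochondrial sum was 906.7, 964.3, 1491 and 1546 TPM. Without Rars2 it was 698.7, 676.3, 741.8 and 720.0 TPM, so the higher mean sum with FGF4 lay almost all in that gene. With Rars2 included, the FGF4 libraries ran from 946 to 2624 TPM and overlapped the DMSO libraries (699 to 995 TPM). The highest FGF4 sums, 2624 and 1935 TPM, were those of replicates 2 and 3, both under 9000 listed genes.

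**Figure D4:**
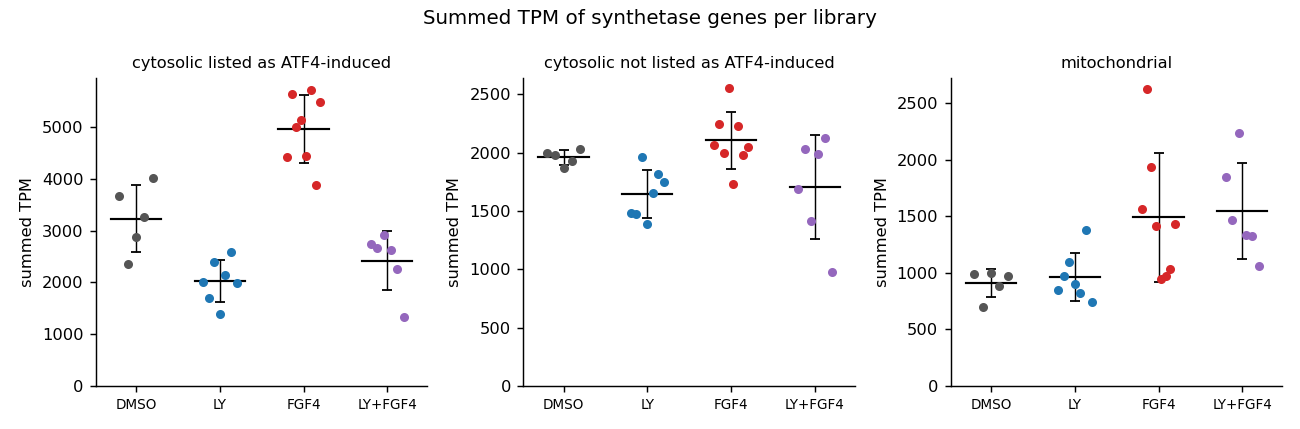
Summed TPM per library (points, y axis from 0) of the 12 ATF4-listed, the 8 other cytosolic and the 16 mitochondrial synthetase genes in the 4 groups, with mean and SD. In the left panel the FGF4 libraries sit between 3891 and 5722 TPM and the LY+FGF4 libraries between 1329 and 2907 TPM.

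Some LY calls depended on the libraries with few listed genes. Of the 11 genes in the pooled effect, 8 were still called without the 6 libraries under 9000 listed genes, which leaves LY+FGF4 with replicates 6 and 7, and 6 with the number of listed genes as a covariate. For LY+FGF4 against FGF4, 4 and 5 of the 11 were, respectively. There Iars lost its call without LY+FGF4 replicate 2 or 8, Kars without replicate 8 and Wars without replicate 5. Tars in LY against DMSO, where no library had under 9000 listed genes, lost its call without DMSO replicate 3, 8 or 9 or LY replicate 4, with its log2 fold change between -1.24 and -1.09 in all 12 runs, and 2 genes were called without DMSO replicate 6. Primitive endoderm markers moved with LY as well: 3 of the 5 tested were lower in the pooled effect, and their part in the result was not tested.

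FGF4 was then compared with vehicle, and 5 synthetase genes rose while 0 fell: Nars, Wars, Eprs and Kars in the cytosol and Rars2 in mitochondria. In that comparison 2.44% of all genes were called and 0.981% were higher. Rars was just outside, at 1.10 (SE 0.31, adjusted p = 0.0527). Eprs, Nars, Rars, Wars, Yars and Rars2, 6 genes, had every FGF4 library above every DMSO library, as had 1.13% of all genes. The median of the 12 ATF4-listed genes was 0.55, with all 12 positive, and that of the 16 mitochondrial genes was -0.07, beside -0.105 over all genes.

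Rars2, the mitochondrial arginine enzyme, rose most. It was at 282, 177, 140.2, 186 and 255 TPM in DMSO and ran from 175 to 352 with a median of 301 in LY, from 316 to 1689 with a median of 644 in FGF4 and from 444 to 1202 with a median of 749 in LY+FGF4. Both groups with FGF4 were wholly above their controls. The highest values were in libraries under 9000 listed genes: FGF4 replicates 2 and 3 (1689 and 1176 TPM) and LY+FGF4 replicates 5 and 2 (1202 and 1109 TPM). LY+FGF4 replicates 3 and 8, also under 9000, had 704 and 444 TPM. After group means were removed, Rars2 had r = -0.549 with the number of listed genes. The difference was 1.66 (SE 0.32, adjusted p = 0.00451) for FGF4 against DMSO and 1.49 (SE 0.32, adjusted p = 0.00546) for LY+FGF4 against LY. LY itself gave 0.47 (SE 0.33, adjusted p = 0.814) and 0.30 (SE 0.31, adjusted p = 0.648). Tars2, the other abundant mitochondrial gene, was at 148, 122, 214, 152 and 124 TPM in DMSO and ran from 159 to 434 with a median of 273 in FGF4, from 111 to 269 with a median of 173 in LY and from 167 to 589.6 with a median of 251 in LY+FGF4. Its difference between FGF4 and DMSO was 0.82 (SE 0.29, adjusted p = 0.133).

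Nars and Wars, whose values are given above, differed by 1.25 (SE 0.28, adjusted p = 0.0118) and 0.90 (SE 0.23, adjusted p = 0.0316). Eprs, the joint glutamate and proline enzyme of the multisynthetase complex, was at 107, 99.5, 120.0, 99.5 and 122 TPM in DMSO and ran from 86.7 to 141 with a median of 117 in LY. In FGF4 it ran from 127 to 288 with a median of 195, and in LY+FGF4 from 88.7 to 185 with a median of 129.6. All FGF4 libraries were above the vehicle libraries, and Eprs differed by 0.84 (SE 0.22, adjusted p = 0.0366). Kars gave 1.15 (SE 0.32, adjusted p = 0.0472), with FGF4 replicate 4 at 688 TPM far above the next library at 320.45 TPM. The Kars call was lost without that library, but also in 11 of the 13 runs that left out 1 library, those without each DMSO library included, and in 9 of 13 settings. Its log2 fold change ran from 0.94 to 1.29 over those runs.

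The effect of FGF4 was also read in the presence of LY. In LY+FGF4 against LY, Rars2 rose while Sars, Sars2 and Ears2 fell, 4 of 36, where 6.3% of all genes were called. Only Rars2 had every LY+FGF4 library above every LY library (0.623% of all genes). Sars fell by 0.78 on the log2 scale (SE 0.20, adjusted p = 0.021). Sars2, for mitochondrial serine, was at 84.1, 44.4, 91.6, 103 and 92.4 TPM in DMSO and ran from 41.8 to 99.8 with a median of 66.5 in LY, from 11.3 to 69.1 with a median of 41.2 in FGF4 and from 0 to 53.9 with a median of 20.7 in LY+FGF4, with 1 library at 0. It differed by -2.36 (SE 0.64, adjusted p = 0.0257), and Ears2 by -2.04 (SE 0.63, adjusted p = 0.0499). The same 2 genes had -1.08 and -0.69 for FGF4 against DMSO, neither past the threshold. The median of the 36 genes was -0.202 and that of all genes -0.235; across other settings it ran from -0.323 to 0.15.

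**Figure D5:**
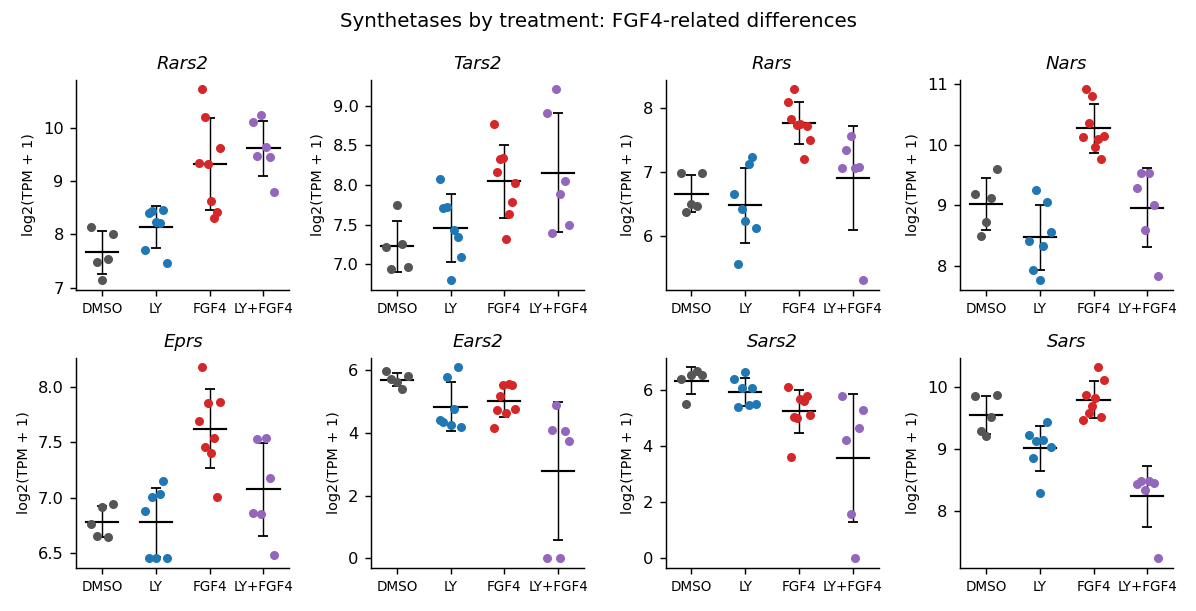
Log2(TPM + 1) per library (points) in the 4 groups (x axis), with mean and SD, for 8 synthetase genes described in the FGF4 comparisons. Rars2 is higher in FGF4 than in DMSO and in LY+FGF4 than in LY without overlap, Rars, Nars and Eprs have their highest mean in FGF4, and Ears2 and Sars2 include LY+FGF4 libraries at 0.

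Several FGF4 calls depended on single libraries. Leaving out 1 library at a time left 1 to 6 genes called against DMSO, with 1 without DMSO replicate 6 or 7, 2 without DMSO replicate 3 or FGF4 replicate 1, 2 or 8, and 3 without DMSO replicate 8 or 9 or FGF4 replicate 4; Rars2 was called in all 13 such runs. For LY+FGF4 against LY, 2 genes were called without LY+FGF4 replicate 6. In that comparison Ears2 lost its call in 9 of 13 runs, among them those without any 1 of the 7 LY libraries, and in 10 of 13 settings. Sars lost its call without LY+FGF4 replicate 8, and Sars2 without LY+FGF4 replicate 5 or 6. Trophectoderm markers moved with FGF4: 2 of 9 tested were lower, and with their level as a covariate, added after the data were seen, 0 of the 36 genes were called against DMSO (Rars2 1.5, adjusted p = 0.0721) and 2 in LY+FGF4 against LY. Epiblast markers fell (5 of 6) and primitive endoderm markers rose (2 of 5 tested), and their part was not tested. With the number of listed genes as a covariate, 2 of the 5 remained against DMSO, Nars and Rars2, and 0 of the 4 in LY+FGF4 against LY. Every LY+FGF4 library had fewer listed genes (highest 9534) than every LY library (lowest 9860). That 0 therefore cannot tell the treatment from the number of listed genes.

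Genes around the synthetases were read from lists of the same pathway. In the pooled LY effect 4.64% of all tested genes were called and 3.6% were lower. Among the genes that sense amino acid shortage and eIF2 stress, 1 of 10 passed there: Atf4 itself, at -0.97 (SE 0.24, adjusted p = 0.0186). It passed in neither background, with -1.02 (adjusted p = 0.298) against DMSO and -0.91 (adjusted p = 0.123) against FGF4. In FGF4 against DMSO Atf4 was at -0.75 (adjusted p = 0.285), whereas all 12 ATF4-listed synthetases were positive there. Atf4 RNA had means of 181.9 ± 31.6 TPM in DMSO (SD, n = 5), 91.6 ± 26.3 in LY (n = 7), 114.3 ± 45.4 in FGF4 (n = 8) and 66.8 ± 48.0 in LY+FGF4 (n = 6). The kinase genes Eif2ak1, Eif2ak2, Eif2ak3 and Eif2ak4 were among the 9 that did not pass. Of 24 other ATF4 targets 21 were tested, and 12 fell in the pooled LY effect while 0 rose, beside the 3.6% of all genes that were lower. The 4 with the smallest p were Chac1, Nupr1, Mthfd2 and Psat1. Mthfd2, of mitochondrial folate metabolism, had -3.01, and Psat1, of serine synthesis, had -1.65. Chac1 degrades glutathione, and Nupr1 is a stress-induced chromatin protein. Nupr1 was at 0 in 5 of 7 LY libraries and 4 of 6 LY+FGF4 libraries, so its fold is left out. Its lowest value was 29.65 TPM with vehicle and 91.23 TPM with FGF4 alone. Chac1 had means of 19.8 TPM in DMSO, 0.806 in LY and 52.9 in FGF4 and was listed at 0 in every LY+FGF4 library, so no fold is given for it. The median of the 21 was -1.49, beside -1.07 for the ATF4-listed synthetases. In FGF4 against DMSO, where 2.44% of all genes were called and 0.981% were higher, 1 of the 21 passed. That was Asns, asparagine synthetase, at 1.96 (SE 0.53, adjusted p = 0.041), in the comparison in which Nars rose.

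Other parts of the translation machinery were also counted. Of the 3 scaffold genes of the multisynthetase complex, 0 passed in the pooled LY effect or in either background; Aimp2 was higher in LY+FGF4 against LY (0.82 (SE 0.22, adjusted p = 0.023)). Among 5 cytosolic elongation factor genes, Eef1a1, which brings charged tRNA to the ribosome, rose with LY (0.47 (SE 0.12, adjusted p = 0.0171)), and Eef1g fell (-0.73 (SE 0.18, adjusted p = 0.0181)). Of 81 tested cytosolic ribosomal protein genes 0 fell, and Rpl31 and Rplp0 were among those that rose, with a median of 0.0591. In mitochondria, 3 of 78 ribosomal protein genes fell (Mrpl12, Mrpl36 and Mrpl37), with a median of -0.21. Over all tested genes 4.64% were called in the pooled LY effect, 3.6% were lower, and the median was -0.176. The count of mitochondrial ribosomal protein genes is thus near the share of all genes. Of 9 mitochondrial translation factors Mtif3, an initiation factor, fell (-1.63 (SE 0.47, adjusted p = 0.0428)). The enzymes of mitochondrial tRNA amidation and formylation (4 genes) and the other synthetase-related and selenocysteine tRNA enzymes (7 genes) gave 0 calls in the 6 comparisons.

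Within groups, synthetase genes varied together only weakly. After group means were removed, the median correlation between pairs of genes over the 26 libraries was 0.139 among ATF4-listed genes (66 pairs), 0.0574 among the other cytosolic genes (28 pairs) and 0.0319 among mitochondrial genes (120 pairs). Between a cytosolic and a mitochondrial gene it was 0.00869 (320 pairs), and among all tested genes 0.0221. The pairs share libraries and their depth, so these are descriptions of 1 set of libraries.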

How the data were processed

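The authors deposited TPM values per gene symbol for 26 single-ICM libraries. The labels describe the data as trimmed and de-duplicated. STAR, RSEM and mm10 were used, per the submitters' processing notes; versions, the gene annotation and whether counting used strand are not stated in those notes or labels. TPM is a share of a library, so a value can fall because others rise, and read depth is unknown.

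From these values, log2(TPM + 1) of 12034 genes (1 TPM or more in 5 or more libraries) was fitted with limma 3.58.1 in R 4.3.3 (trend and robust), all 26 libraries in 1 fit. Tests were two-sided with Benjamini-Hochberg adjustment over all 12034 genes, at an adjusted p under 0.05. The fit was tested on simulated data. Groups came from the labels. Per-library values and motifs were computed in Python 3.11.15 with pandas 2.3.3. Coordinates are GENCODE M21 (GRCm38), which may not be the authors' annotation.

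Values are given in full for each member past the threshold in a comparison and for the 2 highest and 2 lowest per compartment; related genes are named up to the 4 smallest p per list. The members, lists and tests were chosen with earlier results of these data known. Some items of the promoter search and of the related genes are not reported here. In all 13 alternative settings were tried, and each of the 26 libraries was left out in turn.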

Additional observations from a re-analysis of the deposited data

Results flagged for a closer look

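In 6 of 68 groups of 4 to 10 libraries (15 genes past the threshold in a comparison and 2 sums, in 4 treatments), 1 library lay far from the rest of its group by Dixon's criterion. Chance gives about 1 in 20 groups. Aars was at 289.8 TPM in LY+FGF4 replicate 2, against 94.6 in the nearest library. Sars was at 150.75 TPM in LY+FGF4 replicate 8, against 323 in the nearest, and the summed TPM of the cytosolic synthetases in the same library was 2305, against 4319. In DMSO replicate 8, Cars was at 120.69 TPM (nearest 78.6) and Yars at 320.9 TPM (nearest 391.0). Kars was at 688 TPM in FGF4 replicate 4, against 320.45. LY+FGF4 replicates 2 and 8 are among the 6 libraries under 9000 listed genes, and the other libraries named here are not.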

How the results depend on the processing

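No called gene changed direction under the alternatives run. In the pooled LY effect Aars, Gars, Sars, Tars and Yars were called under all 12 settings and without each of the 26 libraries in turn, as were Aars, Sars and Yars in LY+FGF4 against FGF4 under its 13 settings and 14 runs that left out a library.

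The number of synthetase genes called moved as follows. In LY against DMSO it was 7 with library weights, 4 without the 6 libraries under 9000 listed genes, 4 with only the groups of the comparison, and 0 with the number of listed genes as a covariate or with no trend and no robust step, beside 1. In LY+FGF4 against FGF4, 11 genes became 5 with library weights, with the listed genes as a covariate, without the 6 libraries, and with only these groups. With that covariate the median log2 fold change there was -0.559. The pooled effect had 6 genes with that covariate. FGF4 against DMSO gave 3 genes with no filter, 2 with that covariate, 2 with no trend and no robust step, and 0 with trophectoderm marker level as a covariate, an alternative chosen after seeing the data. LY+FGF4 against LY gave 2 with library weights, 2 with no trend and no robust step, 1 with only these groups and 2 with the trophectoderm covariate. It gave 0 with the listed genes as a covariate, whose ranges in these groups do not overlap. The share of all tested genes called under each setting, or in each run that left out a library, is not given here. These moves in counts are therefore not read as particular to the synthetase genes. The causes were not tested. Quantile normalization moved the median of all tested genes from -0.102 to 0.0115 in LY against DMSO, from -0.24 to -0.0143 in LY+FGF4 against FGF4, from -0.176 to -0.00117 in the pooled LY effect and from -0.235 to -0.027 in LY+FGF4 against LY. The medians of the synthetase genes were then -0.298, -0.739, -0.515 and -0.0949, with their signs kept.

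Leaving out 1 library at a time gave 0 to 2 genes for LY against DMSO, 9 to 11 for LY+FGF4 against FGF4, 10 to 11 for the pooled effect, 1 to 6 for FGF4 against DMSO, 2 to 4 for LY+FGF4 against LY and 0 for the interaction. Medians ran from -0.398 to -0.258, -0.976 to -0.572, -0.657 to -0.47, 0.102 to 0.248, -0.306 to -0.0492 and -0.5 to -0.253 in that order.

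Replicate numbers repeat between groups, and the labels do not say that they pair embryos. Residuals of the 31 same-number pairs had a median r of -0.00406 (range -0.0824 to 0.068). Of 24 libraries, 2 matched best with their own number. No pairing was seen in these values, but low correlations of single-ICM libraries cannot exclude it. With the replicate block the counts were 0, 8, 8, 0, 2 and 0 in the same order. Values near 0 TPM, common among mitochondrial genes in LY+FGF4, limit what can be said of them, and depth is unknown.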
